A study of Lachancea kluyveri with 16 samples.

Results

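The 43 genes described here were expressed at far higher levels on the arrays labelled YPD than on those labelled YPGly, in both strains of the yeast *Lachancea kluyveri* that were profiled. They were chosen from the 5316 genes with a probe by their measured values: in the authors' table of log2 values, the mean of the YPGly arrays lay at least 4 below the mean of the YPD arrays, in SEF1-VP16 and also in WT cells. Of the 5316 genes, 1.13% passed this threshold in SEF1-VP16 cells, 1.05% in WT cells and 50 (0.941%) in both, and 7 of these were left out by the rule that defined the set. The difference between the labelled media therefore chose the genes, and it is given below as a description, without a test.

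The study hybridised RNA from 4 groups of 4 cultures each, with 1 array per culture: SEF1-VP16 in YPGly, WT in YPGly, SEF1-VP16 in YPD and WT in YPD. WT was strain JYL1897 (MATa ura3). The SEF1-VP16 strain, SkSef1VP16NB10-1, was 1 clone made from it (MATa ura3 SEF1-VP16::FRT). In it the transcription factor gene SEF1 encodes a fusion with the VP16 activation domain, which comes from a herpesvirus and switches transcription on, and both strains share the ura3 mutation. Cells grown overnight in YPD at 28 °C were diluted to 0.2 OD600 per ml into YPD, a rich medium with glucose, or YPGly, a rich medium with glycerol, and were incubated at 30 °C for 5.5 h. A level is the log2 of the processed signal of a gene's brighter probe after division by the 75th percentile of the array, so that 0 is the level of a probe at that percentile. Array levels average over a culture, so fewer cells that express a gene and less RNA per cell cannot be told apart.

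In *Saccharomyces cerevisiae* and related yeasts, glucose represses genes for the use of other carbon sources, among them the peroxisomal enzymes that shorten fatty acids to acetyl-CoA, the carriers that move acetyl groups and organic acids, and the enzymes that use propionate, lactate or maltose. Many genes of stationary phase, starvation and meiosis are also kept low while glucose lasts. These roles are known from *S. cerevisiae*. The names used below are those of *S. cerevisiae* relatives that the tables of the study give, and 30 of the 43 genes have one there.

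All 8 arrays labelled YPGly lay on 1 slide and scan and all 8 labelled YPD on another, and the SEF1-VP16 arrays filled 1 row of a slide and the WT arrays the other. Effects of medium and slide therefore cannot be told apart, nor can those of strain and row. Between 94.5% and 99.95% of the 10620 gene probes were well above background on each array, and no gene probe was saturated. The level of SEF1 itself averaged -2.13 ± 0.07 in SEF1-VP16 cells and -1.77 ± 0.16 in WT cells labelled YPGly, and -2.25 ± 0.14 in SEF1-VP16 cells and -1.86 ± 0.15 in WT cells labelled YPD (SD, n = 4 each). This level does not show whether the fusion was present.

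The directions below rest on the labels of the media. Of 19 genes on a list of glucose-repressed genes of carbon use (such as PCK1, FBP1 and ICL1), 15 were lower where labelled YPGly in both strains, with a median YPGly minus YPD difference of -1.72 in SEF1-VP16 and -1.77 in WT cells. Of 21 glycolysis and fermentation genes, 5 were lower in both strains, with medians of 0.64 in SEF1-VP16 and 0.08 in WT cells, and of 75 ribosomal protein genes 0 were lower in both, with medians of 0.96 in SEF1-VP16 and 0.89 in WT cells. Over 21 genes of the citric acid cycle the medians were -0.42 in SEF1-VP16 and -0.56 in WT cells. They were -0.41 in SEF1-VP16 and -0.54 in WT cells over 17 respiratory chain genes. Over 27 genes of amino acid and GABA breakdown they were 0.08 in SEF1-VP16 and 0.02 in WT cells. These 3 lists hold none of the 43 genes. The first and the last each hold 1 gene past the threshold, CIT3 and CHA1 (SAKL0C00418g), which the rule left out. Over all 5266 genes tested the median was 0.13 in SEF1-VP16 and 0.15 in WT cells. Most of the 19 listed glucose-repressed genes thus stood higher on the arrays labelled with the glucose medium. However, 6 of the 15 (SFC1 and 5 genes left out by the rule) passed the threshold that chose the 43 genes on these same values. JEN1 (SAKL0D04510g), on the same list, lay the other way, at 3.86 in SEF1-VP16 and 2.63 in WT cells. Of 11 genes of alternative sugar use, 2 of them among the 43, 6 were lower where labelled YPGly in both strains. Their medians were -3.34 in SEF1-VP16 and -2.31 in WT cells, but SUC2 (SAKL0B00220g) stood at 4.04 in SEF1-VP16 and 5.35 in WT cells. Neither exchanged labels nor YPD cultures that had used up their glucose by the time of harvest were tested here. The study describes the cells as in early log phase at harvest. For SEF1-VP16 cells it prints rises of AQY1 under YPD only and of BNA3 (SAKL0D06886g) under YPGly only. With the labels used here, AQY1 rose by 1.5-fold or more only where labelled YPGly. BNA3 differed between the labelled media by 0.80 in SEF1-VP16 and 1.34 in WT cells, so its strain difference was higher where labelled YPD. The printed values and these labels thus disagree on the medium of these changes.

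Across the 43 genes the difference between the labelled media ran between -10.87 and -4.09 in SEF1-VP16 cells, with a median of -5.18, and between -10.95 and -4.06 in WT cells, with a median of -4.91. The medians correspond to levels 36.2-fold lower in SEF1-VP16 and 30.1-fold lower in WT cells labelled YPGly. In neither strain did the YPGly and YPD arrays of any of the 43 genes overlap. The smallest gap between the 2 sets of arrays was 3.04 in SEF1-VP16 and 2.60 in WT cells, both on the log2 scale. The choice of genes by large differences on these same arrays left little room for overlap, so its absence is no separate result. The 5 largest differences, averaged over the strains, were those of SAKL0A03696g, SPS19 (SAKL0H09460g), PXA1, MAL11 and SPG4.

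**Figure D1:**
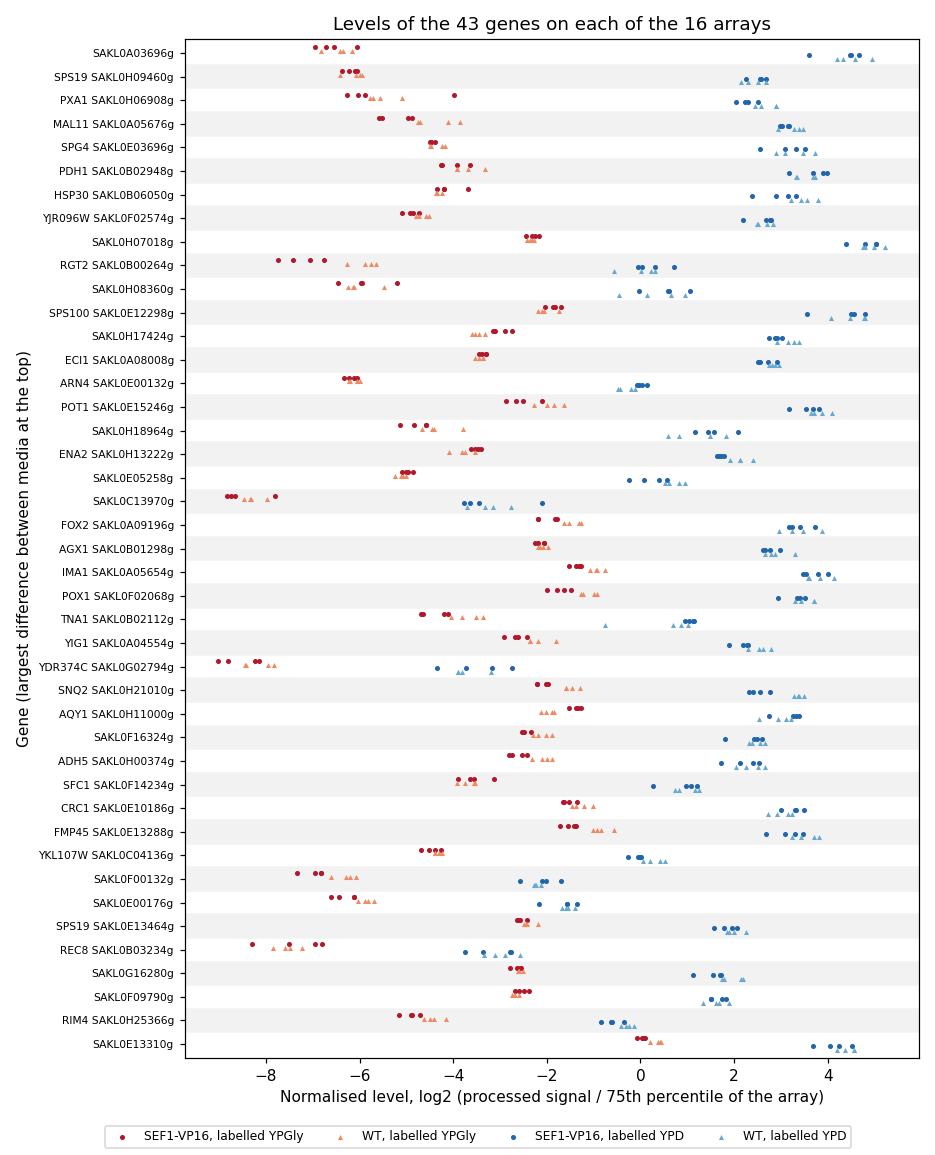
Normalised level (log2, x axis) of each of the 43 genes (y axis, largest difference between the labelled media at the top) on all 16 arrays; each point is 1 array, with circles for SEF1-VP16, triangles for WT, reds for YPGly and blues for YPD. The red points lie left of the blue points in every row, and the smallest gap between the media within a strain is 2.60.

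SAKL0A03696g, which has no name in the tables of the study, stood at the top. Its levels were -6.94, -6.06, -6.72 and -6.55 in SEF1-VP16 cells labelled YPGly, against 4.66, 4.49, 4.47 and 3.61 in SEF1-VP16 cells labelled YPD. In WT cells they were -6.43, -6.35, -6.16 and -6.83 where labelled YPGly, against 4.32, 4.94, 4.59 and 4.19 where labelled YPD. This is a difference of -10.87 in SEF1-VP16 and -10.95 in WT cells, and the second probe of the gene gave -11.25 in SEF1-VP16 and -10.73 in WT cells. On 1 of the 4 SEF1-VP16 arrays labelled YPGly the probe was not well above background. SAKL0H07018g, which the annotation calls a conserved hypothetical protein, was also far apart between the media, with means of -2.29 ± 0.11 in SEF1-VP16 and -2.35 ± 0.06 in WT cells labelled YPGly, against 4.82 ± 0.31 in SEF1-VP16 and 4.93 ± 0.22 in WT cells labelled YPD (SD, n = 4 each).

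Genes of peroxisomal fatty acid oxidation made up 7 of the 43. PXA1 encodes a subunit of the transporter that brings long-chain fatty acids into the peroxisome, and its levels were -6.26, -3.98, -5.88 and -6.04 in SEF1-VP16 cells labelled YPGly, against 2.50, 2.23, 2.29 and 2.04 in SEF1-VP16 cells labelled YPD. In WT cells they were -5.56, -5.78, -5.09 and -5.72 where labelled YPGly, against 2.89, 2.90, 2.46 and 2.58 where labelled YPD. One SEF1-VP16 array labelled YPGly was thus far above the other 3, and still far below every YPD array. The differences were -7.81 in SEF1-VP16 and -8.25 in WT cells.

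POX1, the acyl-CoA oxidase of the first step of the pathway, differed by -5.02 in SEF1-VP16 and -4.64 in WT cells. FOX2, which carries out the next steps, differed by -5.39 in SEF1-VP16 and -4.81 in WT cells. POT1, the thiolase that releases acetyl-CoA, differed by -6.10 in SEF1-VP16 and -5.77 in WT cells. The auxiliary enzymes for unsaturated fatty acids behaved likewise. ECI1, an enoyl-CoA isomerase, differed by -6.03 in SEF1-VP16 and -6.27 in WT cells.

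SPS19, a dienoyl-CoA reductase, names 4 genes in the tables of the study, of which 2 belong to the 43 genes. SAKL0H09460g had levels of -6.06, -6.23, -6.38 and -6.09 in SEF1-VP16 cells labelled YPGly, against 2.55, 2.68, 2.57 and 2.25 in SEF1-VP16 cells labelled YPD, and the WT means were -6.11 ± 0.21 where labelled YPGly and 2.41 ± 0.23 where labelled YPD (SD, n = 4 each). An annotation note of the study calls this gene a conserved hypothetical protein. SAKL0E13464g, which the annotation calls highly similar to SPS19, differed by -4.41 in SEF1-VP16 and -4.38 in WT cells. The other 2 genes named SPS19 differed by -1.38 in SEF1-VP16 and -1.76 in WT cells, and by 1.98 in SEF1-VP16 and 1.88 in WT cells, so the genes of this name did not all lie on the same side.

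On the whole list of peroxisomal fatty acid oxidation, 13 of 14 genes were lower where labelled YPGly in both strains and 11 were lower by 2 or more. The list had a median of -4.17 in SEF1-VP16 and -4.42 in WT cells. Of the list genes outside the 43, IDP3, the peroxisomal isocitrate dehydrogenase, lay nearest to the threshold, at -3.93 in SEF1-VP16 and -4.45 in WT cells. CTA1, the peroxisomal catalase, differed by -3.53 in SEF1-VP16 and -3.54 in WT cells, and PEX11, which acts in the division of peroxisomes, by -2.38 in SEF1-VP16 and -2.62 in WT cells.

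**Figure D2:**
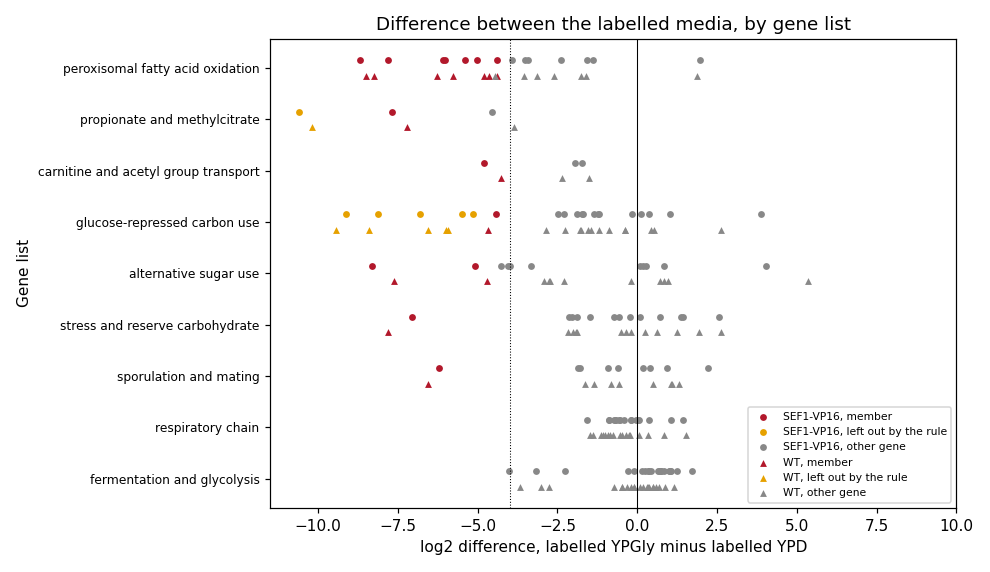
Difference between the labelled media (YPGly minus YPD, log2, x axis) of each gene of 9 lists (y axis), with circles for SEF1-VP16 and triangles for WT, red for the 43 genes, yellow for genes left out by the rule and grey for other genes; the dotted line is the threshold of -4. The peroxisomal list has 7 red genes and the glycolysis list none.

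The set held 3 genes of mitochondrial proteins. CRC1, the carnitine carrier of the inner membrane, had means of -1.54 ± 0.14 in SEF1-VP16 and -1.26 ± 0.19 in WT cells labelled YPGly, against 3.28 ± 0.20 in SEF1-VP16 and 3.01 ± 0.23 in WT cells labelled YPD (SD, n = 4 each). The carnitine acetyltransferases YAT1 and YAT2 differed less, by -1.94 and -1.73 in SEF1-VP16 and by -2.36 and -1.51 in WT cells. SFC1, which exchanges succinate for fumarate, differed by -4.44 in SEF1-VP16 and -4.69 in WT cells.

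PDH1, the methylcitrate dehydratase of propionate use, had levels of -3.91, -3.63, -4.26 and -4.23 in SEF1-VP16 cells labelled YPGly, against 3.90, 3.69, 3.99 and 3.18 in SEF1-VP16 cells labelled YPD. Its difference was -7.70 in SEF1-VP16 and -7.22 in WT cells. It lies next to CIT3, the methylcitrate synthase gene that the rule left out, in the order of locus tags. ICL2, the methylisocitrate lyase of the same pathway, missed the threshold in WT cells only, with -4.56 in SEF1-VP16 and -3.87 in WT cells.

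Sugar genes of the set were MAL11, SAKL0A05654g and RGT2. MAL11, an alpha-glucoside transporter, had levels of -4.87, -4.96, -5.52 and -5.59 in SEF1-VP16 cells labelled YPGly, against 3.16, 3.17, 3.02 and 2.99 in SEF1-VP16 cells labelled YPD. In WT cells its levels were -4.74, -3.86, -4.11 and -4.71 where labelled YPGly, against 3.47, 2.93, 3.40 and 3.28 where labelled YPD. The differences were -8.32 in SEF1-VP16 and -7.63 in WT cells, and the 4 SEF1-VP16 arrays labelled YPGly all lay below the 4 WT arrays of that medium.

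SAKL0A05654g, the neighbour of MAL11 in locus tag order, is named for the isomaltase IMA1 in one table of the study and for the maltase MAL32 in an annotation note. It differed by -5.07 in SEF1-VP16 and -4.72 in WT cells, but the names of both its probes mark them as cross-hybridising with SAKL0A05698g, so the signals of these genes cannot be told apart. The second probe gave -6.43 in SEF1-VP16 and -5.94 in WT cells. SAKL0A05698g, on the other side of MAL11 and also named IMA1, differed by -3.34 in SEF1-VP16 and -2.31 in WT cells.

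RGT2, named for a glucose sensor of the plasma membrane, differed most between the strains in the size of this difference. Its levels were -7.05, -6.76, -7.73 and -7.41 in SEF1-VP16 cells labelled YPGly, against 0.03, 0.30, -0.06 and 0.71 in SEF1-VP16 cells labelled YPD. In WT cells they were -6.26, -5.75, -5.65 and -5.89 where labelled YPGly, against 0.23, -0.57, 0.01 and 0.32 where labelled YPD. This amounts to -7.48 in SEF1-VP16 and -5.88 in WT cells, but 2 of the 4 SEF1-VP16 arrays labelled YPGly had this probe not well above background.

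Among genes of stress and stationary phase, SPG4, needed for survival in stationary phase, had means of -4.45 ± 0.05 in SEF1-VP16 and -4.34 ± 0.16 in WT cells labelled YPGly, against 3.11 ± 0.42 in SEF1-VP16 and 3.30 ± 0.38 in WT cells labelled YPD (SD, n = 4 each). HSP30, a stress protein of the plasma membrane, differed by -7.04 in SEF1-VP16 and -7.82 in WT cells. Of 13 genes of a list of stress and reserve carbohydrate genes, HSP30 was the only one past the threshold and 2 were lower by 2 or more in both strains, and the list had a median of -0.58 in SEF1-VP16 and -0.34 in WT cells.

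SAKL0E12298g, which one table of the study names SPS100 and an annotation note YGP1, both cell wall glycoproteins, had means of -1.86 ± 0.14 in SEF1-VP16 and -2.02 ± 0.19 in WT cells labelled YPGly, against 4.35 ± 0.54 in SEF1-VP16 and 4.53 ± 0.34 in WT cells labelled YPD (SD, n = 4 each). FMP45, a membrane protein of the cell cortex, and its neighbour SAKL0E13310g were the second pair adjacent in locus tag order. FMP45 differed by -4.65 in SEF1-VP16 and -4.39 in WT cells. SAKL0E13310g had means of 0.04 ± 0.07 in SEF1-VP16 and 0.36 ± 0.11 in WT cells labelled YPGly, against 4.12 ± 0.36 in SEF1-VP16 and 4.42 ± 0.18 in WT cells labelled YPD (SD, n = 4 each), so it remained well measured in both media.

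Besides SPS100, first named for sporulation, 4 genes were grouped here under meiosis and spores: REC8, RIM4, AQY1 and YDR374C. The name YDR374C is only a systematic name. REC8, the meiotic cohesin subunit, had levels of -6.79, -8.30, -7.50 and -6.94 in SEF1-VP16 cells labelled YPGly, against -2.76, -3.36, -2.78 and -3.75 in SEF1-VP16 cells labelled YPD, and on 2 of those 4 YPGly arrays it was not well above background. RIM4, an RNA-binding regulator of meiosis, differed by -4.30 in SEF1-VP16 and -4.14 in WT cells. AQY1, a water channel of spores, differed by -4.56 in SEF1-VP16 and -4.91 in WT cells.

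YDR374C (SAKL0G02794g), the gene of a YTH-domain protein that binds methylated RNA, was not well above background on any of the 4 SEF1-VP16 arrays labelled YPGly. Its level there was at least 12.8-fold lower than in SEF1-VP16 cells labelled YPD. In WT cells, where 3 of the 4 arrays labelled YPGly measured it, the difference was -4.46. The bound takes, on each array, the higher of the gene's own signal and the lowest signal of any probe well above background. Of 9 tested genes of a sporulation and mating list, 1 was past the threshold, SPS100, and the list had a median of -0.60 in SEF1-VP16 and -0.56 in WT cells.

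Transporters of the set with other substrates were ENA2, a sodium pump, at -5.21 in SEF1-VP16 and -5.93 in WT cells, and SNQ2, a multidrug exporter, at -4.62 in SEF1-VP16 and -4.87 in WT cells. SAKL0E00132g, named ARN4 in one table of the study and ARN2 in an annotation note, both siderophore transporters, differed by -6.20 in SEF1-VP16 and -5.82 in WT cells. TNA1, a nicotinic acid transporter, differed by -5.47 in SEF1-VP16 and -4.14 in WT cells. Its WT levels labelled YPD were 1.01, -0.76, 0.70 and 0.86, so that 1 array lay well below the other 3.

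Enzymes outside these pathways were AGX1, which makes glycine from glyoxylate, at -4.89 in SEF1-VP16 and -5.00 in WT cells, and YJR096W, an aldo-keto reductase, at -7.50 in SEF1-VP16 and -7.29 in WT cells. SAKL0H00374g, named ADH5 in one table of the study and ADH3 in an annotation note, both alcohol dehydrogenases and the second only weakly similar, differed by -4.82 in SEF1-VP16 and -4.44 in WT cells. YIG1 differed by -4.82 in SEF1-VP16 and -4.74 in WT cells, and YKL107W by -4.39 in SEF1-VP16 and -4.62 in WT cells. The other 9 genes without a name ran between -6.45 and -4.16 in SEF1-VP16 and between -6.66 and -4.30 in WT cells.

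The genes just inside the threshold were SAKL0E13310g (-4.09 in SEF1-VP16 and -4.06 in WT cells), SAKL0F00132g (-4.89 in SEF1-VP16 and -4.07 in WT cells) and TNA1 (-5.48 in SEF1-VP16 and -4.14 in WT cells, in the authors' table). Those just outside were SAKL0F11726g (-4.68 in SEF1-VP16 and -3.98 in WT cells), SAKL0F16742g (-4.14 in SEF1-VP16 and -3.96 in WT cells) and IDP3. All 43 genes have a second probe, and in 40 of them it was also past the threshold in both strains. The others were SAKL0F00132g, where it gave -1.30 in SEF1-VP16 and -2.44 in WT cells, SAKL0E00176g, where it gave -3.81 in SEF1-VP16 and -3.11 in WT cells, and SAKL0F09790g, where it gave -4.28 in SEF1-VP16 and -3.87 in WT cells. Both probes of SAKL0F00132g and both of SAKL0E00176g are marked as cross-hybridising with each other's gene, so the pair may count 1 transcript.

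The size of the difference between the labelled media was similar in the strains for most of the 43 genes. It was larger in SEF1-VP16 cells for 25 genes and larger in WT cells for 18. The SEF1-VP16 difference minus the WT difference ran between -1.60 and 0.79, with a median of -0.14, and 31 genes were within 0.5 of each other. The 2 genes over 1 apart were RGT2 and TNA1. These values come from the differences that chose the genes and have no test.

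Positions are known here only from the order of locus tags. The 43 genes made up 1.59% of the genes of chromosome E, 1.34% of A, 1.17% of B, 1.04% of H, 0.885% of F, 0.342% of C and 0.242% of G, and none of the 585 genes of D, and no test was made of this spread. Within 10 genes of a chromosome end lay 7 of the 43 (16.3%), against 3.01% of all 5316 genes: RGT2, SAKL0E00132g, POT1, SAKL0C13970g, SAKL0H00374g, SAKL0F00132g and SAKL0E00176g. Of the 81 genes that flank them and are not members, 6 (7.41%) were lower where labelled YPGly by 2 or more in both strains, against 3.51% of all genes tested, and the flanking genes had a median of 0.08 in SEF1-VP16 and 0.07 in WT cells. Besides CIT3, SAKL0A05698g and ICL2, these were SAKL0E00154g, which lies between SAKL0E00132g and SAKL0E00176g, SAKL0E05236g and SAKL0H00330g.

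A list of genes that the study assigned to peaks of Sef1 binding held 11 of the 43 (25.6%) and 720 of all 5316 genes (13.5%). The 11 were HSP30, SAKL0H07018g, PDH1, ENA2, AGX1, AQY1, YIG1, SFC1, POX1, YKL107W and RIM4. The list as a whole had a median difference between the labelled media of 0.04 in SEF1-VP16 and 0.04 in WT cells. No test was made of this share.

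The comparison of SEF1-VP16 with WT cells within a labelled medium was not used to choose the genes. It sets 1 clone of the SEF1-VP16 strain against WT and cannot separate strain from array row. Where labelled YPGly, 7 of the 43 genes changed, 6 of them lower and 1 higher in SEF1-VP16 cells (16.3%; limma across 5266 genes, with a Benjamini-Hochberg adjusted p of at most 0.05 and a change of at least 1.5-fold). Of all genes tested, 2.3% were called, 0.684% lower and 1.61% higher. The 43 genes had a median SEF1-VP16 minus WT difference of -0.24, against 0.01 over all genes tested, and 31 of them (72.1%) were lower in SEF1-VP16 cells, against 47.7% of all genes tested. With normexp, an alternative that starts from the median spot signal and corrects the background in another way, the median over the 43 was 0.12, so the direction of the median depends on this choice.

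RGT2 had the largest change, 2.55-fold lower in SEF1-VP16 than in WT cells labelled YPGly (log2 difference -1.35 ± 0.23 SE, adjusted p = 0.0024). All 4 SEF1-VP16 levels given above lay below all 4 WT levels, but only 2 of the SEF1-VP16 arrays measured the probe well above background, and with normexp the difference was -0.05 (adjusted p = 0.96). MAL11 fell 1.84-fold (-0.88 ± 0.20, adjusted p = 0.015), and with normexp it stood at -0.30 (adjusted p = 0.57). SAKL0F00132g fell 1.61-fold (-0.69 ± 0.16, adjusted p = 0.020), although its probe cross-hybridises and only 1 SEF1-VP16 array was above background, and with normexp its difference turned to 0.36 (adjusted p = 0.69).

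FMP45 levels were -1.42, -1.38, -1.71 and -1.54 in SEF1-VP16 cells, against -0.85, -1.01, -0.56 and -0.94 in WT cells labelled YPGly, a 1.60-fold decrease with no overlap (adjusted p = 0.022). POX1 levels were -1.63, -1.47, -2.0 and -1.79 in SEF1-VP16 cells, against -0.99, -1.23, -0.92 and -1.27 in WT cells, a 1.54-fold decrease with no overlap (adjusted p = 0.017). SNQ2 levels were -2.01, -1.97, -2.22 and -2.22 in SEF1-VP16 cells, against -1.47, -1.59, -1.29 and -1.59 in WT cells, a 1.54-fold decrease with no overlap (adjusted p = 0.0026). All 3 genes were well above background on every array of both strains. Lack of overlap alone says little here, as it held for 25.3% of all genes tested where labelled YPGly. AQY1 was the only one of the 43 called higher, with levels of -1.33, -1.38, -1.52 and -1.27 in SEF1-VP16 cells, against -2.13, -2.02, -1.88 and -1.84 in WT cells (1.51-fold, adjusted p = 0.029). The study also prints a 1.51-fold rise of AQY1, but under YPD, and prints none for it under YPGly. The second probe gave 0.37 for AQY1 (adjusted p = 0.18) and -0.55 for POX1 (adjusted p = 0.077). AQY1 also missed the 1.5-fold change with normexp, at 0.58 (adjusted p = 0.037), and with array weights, at 0.57, and POX1 with array weights, at -0.56.

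**Figure D3:**
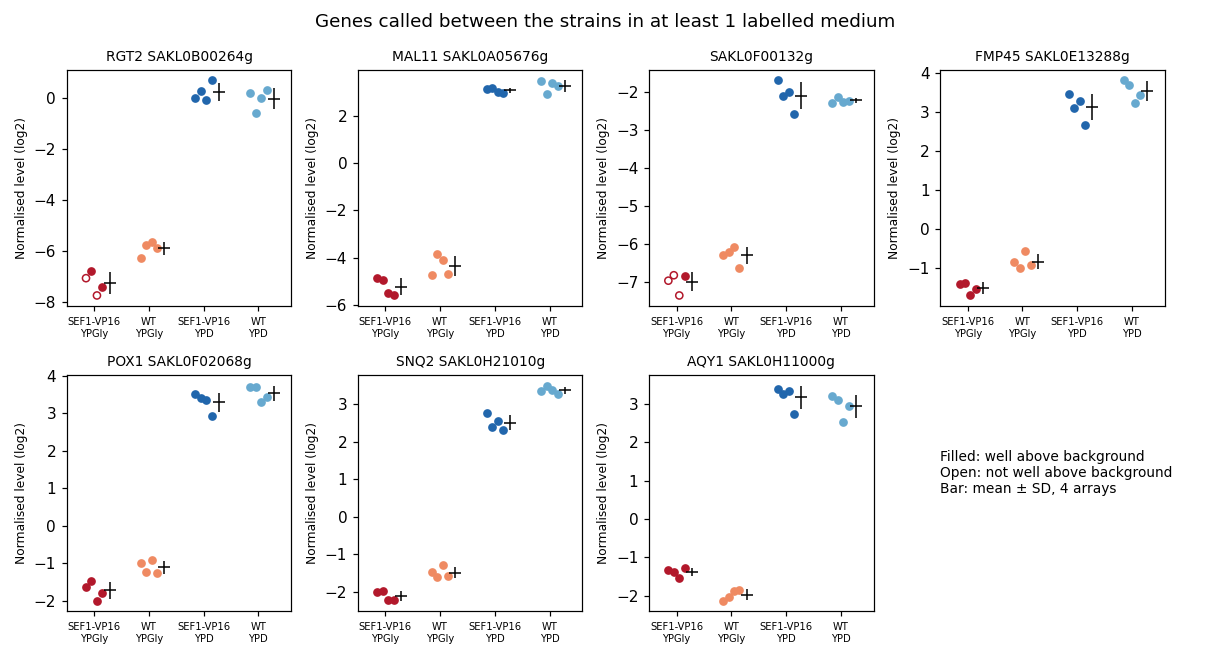
Normalised level (log2, y axis) of the 7 genes called between the strains, in the 4 groups (x axis, each with 4 arrays); filled points were well above background, open points were not, and bars are mean ± SD. SNQ2 is lower in SEF1-VP16 in both media, whereas 2 of the 4 RGT2 points and 3 of the 4 SAKL0F00132g points in SEF1-VP16 labelled YPGly are open.

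The calls where labelled YPGly were close to the threshold. Without 1 array at a time, 1 to 8 of the 43 genes were called: 2 without SEF1-VP16 replicate 3, 2 without SEF1-VP16 replicate 4, 3 without WT replicate 1, 4 without WT replicate 2 and 1, RGT2, without WT replicate 3. The levels of the 43 genes in WT replicate 3 were above their group mean in 36 genes, and those in SEF1-VP16 replicate 3 in 6 genes. Their part in the result was not tested.

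Other members of the same pathways stood on the same side without passing the test. POT1 was at -0.60 ± 0.18 (adjusted p = 0.054), FOX2 at -0.57 ± 0.18 (adjusted p = 0.067) and SAKL0A05654g at -0.44 ± 0.13 (adjusted p = 0.064), all SEF1-VP16 minus WT where labelled YPGly by limma. PXA1, ECI1 and both SPS19 genes ran between -0.18 and 0.06, with adjusted p between 0.42 and 1.0. Of the 14 genes on the peroxisomal list, 1 fell, POX1, and 2 rose, none of them among the 43, and the list had a median of -0.09. Of the 11 genes on the list of alternative sugars, 5 fell and none rose, with a median of -0.74, and MAL11 was the only one of the 5 among the 43. RIM4, at -0.49 ± 0.12 (adjusted p = 0.028), passed the adjusted p but not the 1.5-fold change. The unnamed SAKL0H17424g did so in the other direction, at 0.50 ± 0.12 (adjusted p = 0.016), with levels of -3.16, -2.90, -3.11 and -2.75 in SEF1-VP16 cells, against -3.53, -3.61, -3.45 and -3.33 in WT cells, and it was called with normexp.

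Where labelled YPD, SNQ2 was the only one of the 43 genes called (2.33%), against 2.11% of all genes tested and 0.627% called lower. Its levels were 2.77, 2.41, 2.56 and 2.32 in SEF1-VP16 cells, against 3.37, 3.50, 3.40 and 3.27 in WT cells, a 1.82-fold decrease with no overlap (limma, log2 difference -0.87 ± 0.11, adjusted p = 9.5e-05). SNQ2 was thus the only gene of the set called in both labelled media, and lower in SEF1-VP16 cells in both. Its second probe gave -0.52 where labelled YPD (adjusted p = 0.033, under 1.5-fold) and -0.39 where labelled YPGly (adjusted p = 0.10).

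The 6 genes called where labelled YPGly other than SNQ2 had differences between -0.42 (FMP45) and 0.25 (RGT2) where labelled YPD, with adjusted p between 0.16 and 0.69. Whether the strain difference itself differed between the media was not tested. ENA2, at -0.43 ± 0.11 where labelled YPD (adjusted p = 0.039), passed the adjusted p but not the 1.5-fold change. SAKL0E05258g did likewise, at -0.53 (adjusted p = 0.047). Without SEF1-VP16 replicate 1, HSP30 and SAKL0E05258g were called as well as SNQ2, without WT replicate 2 SAKL0E05258g was, and without WT replicate 3 HSP30 was. With all arrays HSP30 stood at -0.56 ± 0.18 (adjusted p = 0.082), and TNA1 at 0.61 ± 0.29 (adjusted p = 0.24), with the low WT array among its values.

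The 43 genes had a median SEF1-VP16 minus WT difference of -0.15 where labelled YPD, against 0.02 over all genes tested, and 29 of them (67.4%) were lower in SEF1-VP16 cells, against 46.3% of all genes tested. One SEF1-VP16 array, replicate 4, was below its group mean in most of the 43 genes, with 7 above it and a median deviation of -0.37. Without this array the median difference was -0.01.

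**Figure D4:**
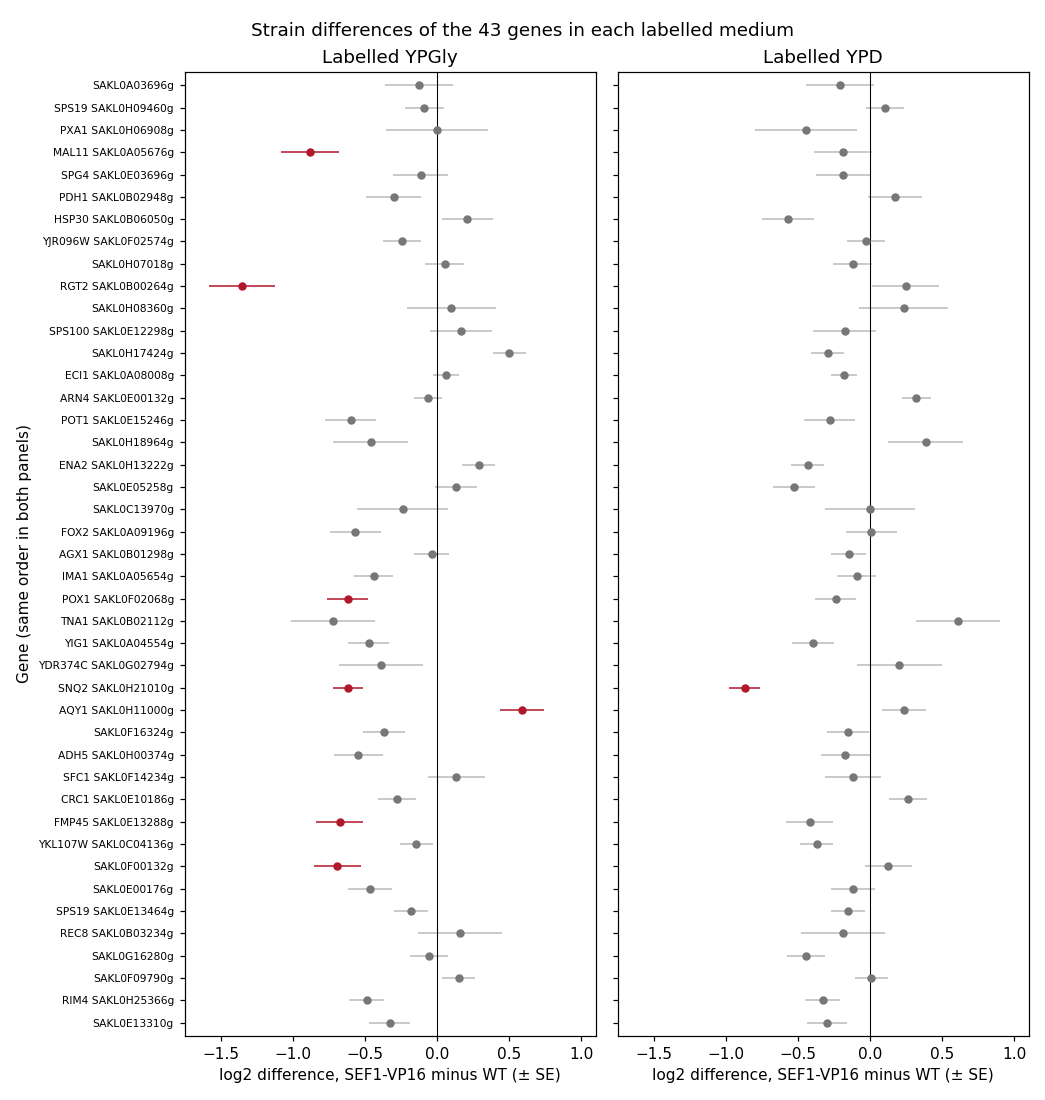
SEF1-VP16 minus WT difference (log2, x axis, ± SE of the limma fit) of each of the 43 genes (y axis), where labelled YPGly (left) and labelled YPD (right); red marks the genes called. The left panel has 7 red genes, 6 of them below 0, and the right panel 1, SNQ2.

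The levels of the strains did not overlap for 17 of the 43 genes where labelled YPGly, against 25.3% of all genes tested, and for 6 where labelled YPD, against 7.99% of all genes tested. Replicates of the 43 genes were somewhat more spread than those of all genes tested, but hardly so in WT cells labelled YPD. The median SD over the 43 was 0.18 in SEF1-VP16 and 0.18 in WT cells labelled YPGly, and 0.28 in SEF1-VP16 and 0.23 in WT cells labelled YPD, while over all genes tested it was 0.11 in SEF1-VP16 and 0.12 in WT cells labelled YPGly, and 0.16 in SEF1-VP16 and 0.22 in WT cells labelled YPD. In the arrays labelled YPGly, 37 of the 43 genes were well above background on all 4 SEF1-VP16 arrays and 41 on all 4 WT arrays, and all 43 were on all arrays labelled YPD.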

How the data were processed

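RNA of 16 cultures, 4 per group, was labelled by oligo-dT primed synthesis with 1 dye and hybridised by the authors to custom Agilent arrays, which were read with Agilent Feature Extraction 10.5.1.1 (submitters' processing notes). Each deposited scanner file gives intensity columns for its spots, of which the background-corrected processed signal and the median spot and background signals were used. A deposited table of the authors holds log2 values scaled to the 75th percentile, whose columns equal log2 of the processed signal minus a constant for each array. The genes were picked on that table and measured on log2 of the processed signal minus the 75th percentile of each array over 10620 gene probes. The brighter of a gene's probes was used, 332 spots with outlier flags were left out, and 5266 of 5316 genes exceeded background on each array of 1 group or more, all 43 among them. Since all 43 passed through the arrays labelled YPD, where they are high, their passing is no support. The number of arrays limits the precision.

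Strains were compared within each labelled medium with limma 3.58.1 (R 4.3.3) on all 16 arrays and 4 group means, and a gene was called at a Benjamini-Hochberg adjusted p of 0.05 or less and 1.5-fold. The labels call the cultures biological replicates. The fit was tested on simulated data. Alternatives were other scalings, normexp (offset 50) on median signals because mean signals are not in the files used here, the other probe, other filters, the methods' t-test, array weights, a replicate block and leaving out each array.

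The text names genes called between strains, genes with an *S. cerevisiae* name, the 5 largest differences between media, the 5 highest levels where labelled YPD, genes next to the threshold and adjacent genes; other genes it names were chosen after their values were seen. The 43 genes and the lists were chosen with earlier results of these data known. Names come from tables of the study that list parts of the genome, so a list may miss genes. No sequences or coordinates were used here.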

Additional observations from a re-analysis of the deposited data

Results flagged for a closer look

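In 172 sets of 4 arrays (43 genes in 4 groups), 7 (4.07%) had 1 array whose gap to the nearest of the others took up more of the whole range than Dixon's critical value allows, and chance gives about 1 in 20. For PXA1 this was SEF1-VP16 labelled YPGly replicate 2, at -3.98 against -6.26 to -5.88 in the other 3 arrays (gap over range 0.833). For YJR096W it was SEF1-VP16 labelled YPD replicate 4, at 2.19 against 2.68 to 2.78 (0.836). For YDR374C it was WT labelled YPD replicate 2, at -3.20 against -3.90 to -3.81 (0.873). The other 4 were genes without a name. SAKL0C13970g stood at -7.81 in SEF1-VP16 labelled YPGly replicate 4, against -8.83 to -8.66 (0.835), with 1 of these 4 arrays well above background. SAKL0F16324g stood at -2.33 in SEF1-VP16 labelled YPGly replicate 2, against -2.53 to -2.50 (0.841). SAKL0G16280g stood at -2.51 in WT labelled YPGly replicate 3, against -2.61 to -2.60 (0.914). SAKL0H08360g stood at -5.47 in WT labelled YPGly replicate 2, against -6.24 to -6.11 (0.833). In no gene of the 43 did the levels of the strains lie fully apart in opposite directions in the 2 labelled media.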

How the results depend on the processing

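The median of the medium difference over the 43 genes, -4.95 as the mean of both strains, ran between -5.14 and -4.88 under 6 other settings and between -5.01 and -4.88 without 1 array at a time. The rule found 54 genes at a threshold of -3.5 and 28 at -4.5, 38 with normexp (36 of them among the 43), 41 to 47 under the other settings and 42 to 45 without 1 array. Where labelled YPGly, 121 genes were called, 348 without the fold threshold and 85 to 133 without 1 array. Of the 43, 7 were called, 4 with normexp (3 of them the same genes) and 1 to 8 without 1 array, and the median over the 43 was 0.12 with normexp, the only setting that turned its sign, and -0.30 to -0.17 without 1 array. With normexp SAKL0F00132g stood at 0.36, against -0.69. Where labelled YPD, 111 genes were called, 25 by the methods' t-test with Benjamini-Hochberg adjusted p-values, 281 without the fold threshold, 52 with only the 8 arrays of that medium and 88 to 150 without 1 array. Of the 43, 1 was called, 0 with the other probe (limma), where SNQ2 stood at -0.52 (adjusted p = 0.033), 3 without the fold threshold and 1 to 3 without 1 array (SAKL0E05258g and HSP30 joined without SEF1-VP16 replicate 1), and their median was -0.23 to -0.01. Arrays with the same replicate number lay in the same column of a slide, but the labels name no shared culture or day, and their deviations from the group means correlated between -0.55 and 0.77. With the replicate block, 8 of the 43 were called where labelled YPGly and 1 where labelled YPD. The slide could not be fitted as a block. Probes at background in YPGly limit the size of the difference there.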
